A study of Mus musculus with 27 samples.

Results

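Formative pluripotent stem cells (fPSCs) of the mouse can be set up from the epiblast of the embryo or from embryonic stem cells (mESCs), and the comparison described here asks how far the transcriptomes of lines of these 2 origins differ. It takes 5 libraries out of 19 bulk RNA libraries, in a series of 27 samples. The epiblast-derived group held 1 fPSC library from E5.5 epiblast and 1 from E6.5 epiblast, both at passage 10 (P10). The mESC-induced group held 3 fPSC libraries, at P10, P20 and P30, which the study grew out from CMTI-1 mESCs. All 5 were labelled as wild type (WT) stem cells kept in N2B27 medium with Activin A, bFgf2 and XAV939, and all were made from total RNA in the same deposit. XAV939 is a tankyrase inhibitor that dampens canonical Wnt signalling, Activin A acts through Smad2 and Smad3, and bFgf2 feeds the ERK pathway.

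Formative pluripotency is the state between the naive cells of the preimplantation epiblast and the primed cells of the gastrulating embryo. Cells in it have shut down naive factors and gained Otx2, Dnmt3b and Fgf5, and they become able to answer the cues that make germ layers or primordial germ cells. The epiblast next to the primitive streak goes on to mesoderm and definitive endoderm under Nodal and Wnt signals.

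The design limits what a difference can be tied to. The 3 mESC-induced libraries were passages, which nothing says came from separate inductions, and each embryonic stage had 1 library, so a p-value here measures the spread between these libraries. The strain of the embryos was not stated in the sources used here, and origin, line and genetic background cannot be told apart. In bulk RNA, fewer cells of a type and less RNA per cell cannot be told apart either. Expression was given as FPKM (fragments scaled to transcript length and library size), without counts, so the depth is unknown. The FPKM of a library summed to between 315959 and 355212, and between 10034 and 10180 genes reached 1 FPKM.

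The markers given for fPSCs were present in all 5 libraries. Fgf8, a growth factor of the streak and its neighbourhood, stood at 143 FPKM in the E5.5-derived and 139 FPKM in the E6.5-derived library, against 75.1, 102 and 85.3 FPKM at P10, P20 and P30. Cldn6, a tight junction protein of embryonic epithelia, stood at 347 and 227 FPKM against 181, 184 and 170 FPKM. Both genes were therefore higher in each epiblast-derived library than in any mESC-induced one, as were 12.6% of all genes tested. Neither difference passed the test. The log2 fold change of Fgf8 was 0.69 (SE 0.17, adjusted p = 0.129) and that of Cldn6 was 0.65 (SE 0.21, adjusted p = 0.222), with limma on log2(FPKM + 1), the scale of every fold change and list median below.

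Sequences are given first for the genes with the largest differences, because most of these genes have near-identical copies elsewhere in the genome. A processed copy is an intronless duplicate of a gene made from its messenger RNA, and the short fragments of a library can fit the gene and its copy alike. Each set below is 90 bases from a coding exon of the parent gene with the matching stretch of its copies, in build mm9 (NCBIM37). Capitals mark the position at which the family members differ, and all other bases are shared.
Rps3a1 (minus strand, chr3:85942991-85943080): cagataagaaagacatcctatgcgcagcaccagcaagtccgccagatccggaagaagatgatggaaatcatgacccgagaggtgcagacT
Rps3a2 (minus strand, chr14:88523082-88523171): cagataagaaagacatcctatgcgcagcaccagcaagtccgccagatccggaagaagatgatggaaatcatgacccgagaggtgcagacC
Rps3a3 (plus strand, chr13:109461241-109461330): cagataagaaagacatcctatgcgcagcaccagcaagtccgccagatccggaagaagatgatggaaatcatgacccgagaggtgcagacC
Rps2 (plus strand, chr17:24857983-24858072): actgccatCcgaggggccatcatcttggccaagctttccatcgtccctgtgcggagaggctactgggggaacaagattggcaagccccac
Rps2-ps13 (plus strand, chrX:50252209-50252298): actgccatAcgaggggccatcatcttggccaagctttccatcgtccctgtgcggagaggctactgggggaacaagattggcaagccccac
Rps13 (minus strand, chr7:123475904-123475993): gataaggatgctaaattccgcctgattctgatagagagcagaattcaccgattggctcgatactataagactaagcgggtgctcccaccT
Rps13-ps1 (plus strand, chr8:89571940-89572029): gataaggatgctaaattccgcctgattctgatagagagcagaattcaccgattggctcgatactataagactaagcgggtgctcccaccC
Rpl15 (minus strand, chr14:19101726-19101815): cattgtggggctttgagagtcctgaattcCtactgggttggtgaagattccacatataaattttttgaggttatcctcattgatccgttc
Rpl15-ps2 (plus strand, chr9:71909066-71909155): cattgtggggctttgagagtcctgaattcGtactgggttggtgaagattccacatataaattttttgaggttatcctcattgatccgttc

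In each of the 4 sets, a fragment that did not cross the capital letter could not be assigned to the parent or to a copy from its sequence alone. Over the whole coding sequence, Rps3a2 was 99.5% and Rps3a3 99.0% identical to Rps3a1, and Vcp-rs was 99.0% identical to Vcp. Rps13-ps1 was 99.6% identical to Rps13, Rpl15-ps2 98.7% to Rpl15 and Rps2-ps13 97.8% to Rps2. How the alignment and the FPKM estimate dealt with fragments that fit several places was not given in the sources used here. Values of such entries are uncertain for this reason.

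Across the genome few genes were called between the 2 kinds of fPSCs. With 2 against 3 libraries, a low count of calls does not show that the groups were alike. Of 10458 genes tested, 119 were called, with a change of 1.5-fold or more at an adjusted p under 0.05, which is 1.14% of the genes tested. Of these, 64 (0.612%) were higher and 55 (0.526%) were lower in epiblast-derived fPSCs. At an unadjusted p under 0.05 there were 1426 genes, and 97.0% of the genes tested lay within 2-fold. The median log2 fold change of all genes tested was -0.05, and the medians of the autosomes and the X chromosome ran from -0.08 to -0.01.

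The number of calls rested on single libraries. It rose to 208 without the E5.5-derived library, and it fell to 42 without P10, 37 without P20 and 74 without P30. The plot of fold change against level shows where the calls lie.

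**Figure D1:**
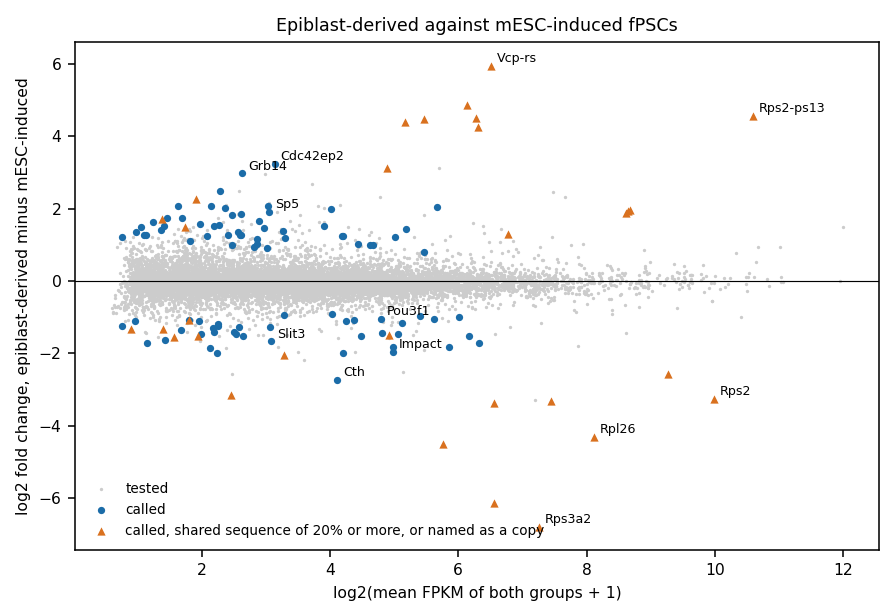
Log2 fold change (epiblast-derived minus mESC-induced, on log2(FPKM + 1)) of each of the 10458 genes tested, against log2 of the mean FPKM of both groups plus 1. Blue points are called genes, orange triangles are called genes that share at least 20% of their sequence with another locus or are named as copies, and these hold the largest changes in both directions (19 of the 29 genes called at 4-fold or more).

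Genes with copies made up much of the difference. A gene was counted as sharing sequence when at least 20% of the 31-base words of its transcripts also occurred at another annotated locus. This held for 28 of 111 called genes with a position (25.2%), against 577 of 10103 genes tested with a position (5.71%). Among genes called at 4-fold or more, 19 of 29 shared sequence in this way or were named as copies (with the ending -ps or -rs). Ribosomal protein genes, which encode structural parts of the ribosome and have many copies, supplied most of the families.

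Rps3a1 encodes a protein of the small ribosomal subunit, and it rose while its copies fell. Rps3a1 stood at 709 and 523 FPKM in the E5.5- and E6.5-derived libraries and at 164, 208 and 134 FPKM at P10, P20 and P30 (log2 fold change 1.87, SE 0.23, adjusted p = 0.0165). Rps3a2 stood at 2.56 and 0.995 FPKM against 290, 381 and 235 FPKM (-6.80, SE 0.29, adjusted p = 0.000144), the largest fall of all genes tested. Rps3a3 stood at 2.34 and 0.992 FPKM against 164, 237 and 154 FPKM (-6.14, SE 0.27, adjusted p = 0.000144). Summed over the 3 entries the family was level, at 714 and 525 FPKM against 618, 825 and 523 FPKM, with a log2 fold change of -0.07 (adjusted p = 0.943).

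Rps2, another protein of the small subunit, showed the opposite exchange. Rps2 itself fell, from 1808, 1546 and 2141 FPKM at P10, P20 and P30 to 240 and 148 FPKM in the E5.5- and E6.5-derived libraries (-3.26, SE 0.26, adjusted p = 0.00221). Rps2-ps13 rose, from 116, 122 and 123 FPKM to 3836 and 2110 FPKM (4.55, SE 0.26, adjusted p = 0.000454). Rps2-ps10 rose as well, from 159, 164 and 166 FPKM to 836 and 479 FPKM. The sum of the family stood at 4913 and 2737 FPKM against 2084, 1832 and 2431 FPKM and was not called (0.80, adjusted p = 0.296).

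Vcp-rs had the largest rise. Vcp encodes an AAA ATPase that pulls ubiquitinated proteins out of complexes and membranes. Its related sequence Vcp-rs, on the X chromosome, stood at 197 and 159 FPKM in the epiblast-derived libraries and at 1.43, 2.23 and 2.02 FPKM at P10, P20 and P30 (5.95, SE 0.18, adjusted p = 4.31e-05). Vcp stood at 155 and 166 FPKM against 285, 284 and 279 FPKM (-0.82, adjusted p = 0.0536). Vcp and Vcp-rs together came to 352 and 325 FPKM against 287, 286 and 281 FPKM (0.25, adjusted p = 0.530). In the 14 bulk libraries outside the comparison, which hold mESCs, EpiLCs, EpiSCs, Epiblastoids and other mESC-induced fPSCs, Vcp-rs ran from 1.48 to 5.14 FPKM, with a median of 2.31 FPKM.

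Further families held a call of the parent or of a copy. Rps13 rose from 208, 161 and 130 FPKM at P10, P20 and P30 to 683 and 575 FPKM in the E5.5- and E6.5-derived libraries (1.93, adjusted p = 0.0133), and Rps13-ps1 fell from 176, 196 and 137 FPKM to 19.1 and 12.3 FPKM (-3.37, adjusted p = 0.00107). The Rps13 family summed to 706 and 590 FPKM against 390, 364 and 273 FPKM, so the sum lay higher in both epiblast-derived libraries, and it was not called (0.93, adjusted p = 0.103). Rpl15-ps2 fell from 104, 105 and 99.8 FPKM to 4.61 and 2.70 FPKM (-4.51, adjusted p = 0.000144), while the Rpl15 family summed to a log2 fold change of -0.05. Eif3s6-ps2, a copy of the translation factor gene Eif3e, fell from 15.8, 16.2 and 11.3 FPKM to 1.49 and 4.51 FPKM (-2.04, adjusted p = 0.0421). Eif3e and this copy summed to a log2 fold change of -0.30 (adjusted p = 0.516). Leaving out P20 ended the call of Rps13 (adjusted p = 0.0714), and leaving out P10, P20 or P30 ended that of Eif3s6-ps2 (0.131, 0.149 and 0.0790).

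The 5 called copies of Rpl35a rose together, and since they share most of their words with other loci they are not separate observations. Rpl35a-ps6 stood at 110 and 186 FPKM against 5.01, 3.03 and 9.46 FPKM (4.51, adjusted p = 0.00365). Rpl35a-ps2, Rpl35a-ps3 and Rpl35a-ps4 had log2 fold changes of 4.47, 4.26 and 4.405. Rpl35a itself stood at 249 and 32.7 FPKM against 285, 341 and 338 FPKM and was not called. The Rpl35a family summed to 589 and 601 FPKM against 301, 351 and 367 FPKM (0.81, adjusted p = 0.0863). Rps19-ps6, which has no position in the annotation used, rose from 2.47, 4.38 and 4.27 FPKM to 119 and 151 FPKM (4.87, adjusted p = 0.000186). The Rps19 family summed to 354 and 292 FPKM against 136, 214 and 172 FPKM (0.90, adjusted p = 0.127).

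Rpl26 and Rps18 differed in that no measured copy rose as they fell. Rpl26 fell from 489, 584 and 504 FPKM at P10, P20 and P30 to 35.6 and 17.9 FPKM in the E5.5- and E6.5-derived libraries (-4.32, SE 0.28, adjusted p = 0.000698). Rps18 fell from 347, 330 and 275 FPKM to 26.4 and 35.5 FPKM (-3.32, SE 0.19, adjusted p = 0.000454). In the 14 other bulk libraries Rpl26 ran from 241 to 1008 FPKM and Rps18 from 142 to 715 FPKM, so both epiblast-derived libraries lay below every other library for both genes. The sums of these families, with the copies in the table, were also called (-4.32 and -3.32).

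In all, 17 families of a parent gene and its copies held a called member, 4 had members called in both directions and 4 were called on the sum of their members. When copies were summed into the parent gene over the whole table, 76 genes were called. When genes with shared sequence or without a position were left out, 70 were called (36 higher, 34 lower) of 9526 tested. These 2 settings were chosen after the data were seen. The plot of parents and copies sets the members of 6 families beside their sums.

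**Figure D2:**
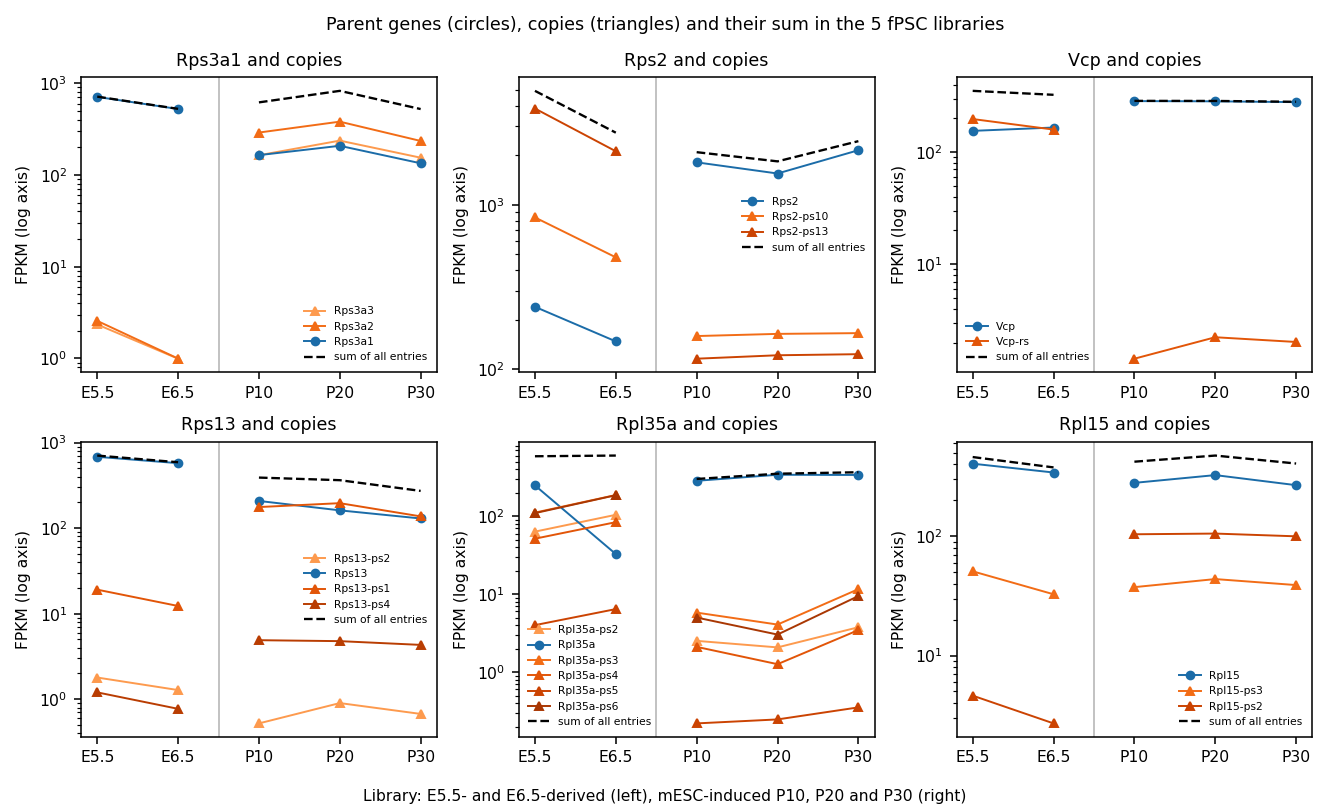
FPKM on a log axis of 6 parent genes (blue circles), their tested copies (orange triangles) and the sum of all entries of the family (dashed black) in each library, with the epiblast-derived libraries left and the mESC-induced libraries right of the grey line. Lines only join libraries of a group; for Rps3a1 the parent and its copies change places between the groups while the sum stays in 1 range (714 and 525 FPKM against 523 to 825 FPKM), and for Rps13 the sum lies higher in the epiblast-derived libraries (706 and 590 FPKM against 273 to 390 FPKM).

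Outside these families, the called genes were mostly of moderate size. Among the rises at 10 FPKM or more was Cdc42ep2, an effector of the GTPase Cdc42 that organizes actin. Cdc42ep2 stood at 8.42 and 21.7 FPKM in the E5.5- and E6.5-derived libraries and at 0.632, 1.02 and 0.134 FPKM at P10, P20 and P30 (3.24, SE 0.40, adjusted p = 0.0150), a call lost without P10 (adjusted p = 0.0641). Ndufs5, a subunit of respiratory complex I, stood at 66.8 and 38.0 FPKM against 4.25, 5.34 and 5.16 FPKM (3.12, SE 0.24, adjusted p = 0.00213). Of the words of Ndufs5, 26.7% occur at another locus, so its value is uncertain too.

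The rises also held Pcdh8, Wfdc2 and Cthrc1. Pcdh8, the paraxial protocadherin of the gastrulating mesoderm, stood at 9.52 and 15.2 FPKM against 2.38, 2.04 and 1.84 FPKM (2.08, SE 0.22, adjusted p = 0.00796). Wfdc2, a secreted protein with protease inhibitor domains, stood at 110 and 53.6 FPKM against 19.1, 19 and 15.5 FPKM (2.05, SE 0.29, adjusted p = 0.0259). Cthrc1, a secreted protein linked to Wnt and planar polarity signalling, stood at 23.9 and 25.6 FPKM against 6.51, 4.42 and 5.72 FPKM (1.99, SE 0.18, adjusted p = 0.00400). Absence of overlap between the groups was part of the rule by which these 3 genes were chosen. The call of Wfdc2 was lost without P10, P20 or P30 (adjusted p = 0.0804, 0.0900 and 0.0801).

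Several further genes without shared sequence are named here after their values were seen. Grb14, an adaptor that inhibits the insulin receptor, stood at 10.1 and 9.85 FPKM against 0.245, 0.389 and 0.598 FPKM (2.97, SE 0.18, adjusted p = 0.000541). Lbh, a transcription cofactor downstream of Wnt in several tissues, stood at 19.8 and 22.8 FPKM against 7.05, 6.43 and 6.92 FPKM (1.51, SE 0.15). Nefm, a neurofilament subunit, stood at 52.3 and 51.5 FPKM against 16.2, 25.3 and 15.7 FPKM (1.43, SE 0.22). B3gnt2, a glycosyltransferase that extends poly-N-acetyllactosamine chains, stood at 8.04 and 9.19 FPKM against 1.64, 1.71 and 1.63 FPKM (1.85, SE 0.16). The calls of Grb14, Lbh and B3gnt2 held without each of the 5 libraries in turn, and that of Nefm was lost without any library but P20 (adjusted p from 0.0745 to 0.119).

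The falls outside these families included Cth, Gnpda1, Impact and Sesn2. Cth, the enzyme that splits cystathionine to cysteine, stood at 1.95 and 5.62 FPKM in the E5.5- and E6.5-derived libraries and at 30.4, 29.5 and 26.2 FPKM at P10, P20 and P30 (-2.75, SE 0.31, adjusted p = 0.0128). Gnpda1, which turns glucosamine phosphate into fructose phosphate, stood at 7.25 and 5.63 FPKM against 29.1, 25.1 and 31.1 FPKM (-1.99, SE 0.17, adjusted p = 0.00315). Impact, an imprinted inhibitor of the kinase Gcn2, stood at 8.65 and 15.4 FPKM against 60.4, 50.3 and 36.0 FPKM (-1.95, SE 0.29, adjusted p = 0.0306). Sesn2, a stress-induced inhibitor of mTORC1, stood at 31 and 30.7 FPKM against 66.2, 76.1 and 54.1 FPKM (-1.05, SE 0.18, adjusted p = 0.0454). The call of Sesn2 was lost without any 1 of the 5 libraries (adjusted p from 0.0514 to 0.171), and that of Cth without P10 (0.0579).

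Chosen after their values were seen, 3 fallen genes with broad roles in cells were Capzb, Ywhab and Slit3. Capzb, which caps the barbed ends of actin filaments, stood at 20.6 and 28.7 FPKM against 75.8, 107 and 85.8 FPKM (-1.83, SE 0.21). Ywhab, a 14-3-3 protein, stood at 43.3 and 30.3 FPKM against 123, 130 and 112 FPKM (-1.72, SE 0.19). Slit3, a secreted guidance cue, stood at 3.17 and 2.91 FPKM against 12.5, 11.9 and 11.4 FPKM (-1.68, SE 0.15). The call of Ywhab was lost without P10 or P20 (adjusted p = 0.0539 and 0.0531), and those of Capzb and Slit3 held without each library in turn. The plot of called genes by library shows these values beside those of fPSCs from other mESC lines.

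**Figure D3:**
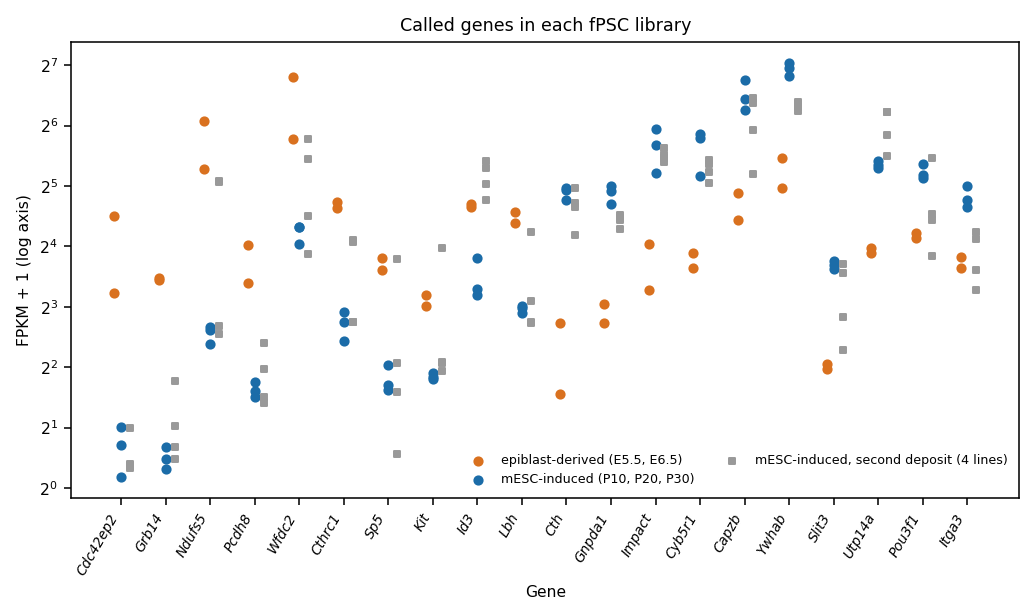
FPKM plus 1 on a log axis of 20 called genes named in the text, per library: 2 epiblast-derived (orange), 3 mESC-induced (blue) and 4 mESC-induced libraries of the second deposit (grey squares). Orange and blue points do not overlap, which held for all 119 called genes and is no separate result for those shown. The grey points lie between or beyond both for some, such as Id3 (26.3 to 41.4 FPKM, above the orange points) and Ndufs5 (32.7 and 32.3 FPKM in BVSC and ROSAmT/mG fPSCs).

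Libraries outside the comparison put these genes in context. Of the 64 called higher genes, 27 stood in both epiblast-derived libraries above all 14 other bulk libraries. Of the 55 called lower genes, 25 stood below all 14. Called genes were picked for standing apart in these same 2 epiblast-derived libraries. The share over all genes tested was not computed, so these counts are a description only. The 4 second-deposit libraries are 1 library each of fPSCs from the mESC lines 46C, BVSC, ROSAmT/mG and CMT, taken at P24, P14, P12 and P11. The paper describes its CMT fPSCs of P11 as cryopreserved and does not say this of the others. Line, passage and freezing therefore cannot be told apart in comparisons with the CMT library. Relative to the CMT library, 21 of the 64 called higher genes (32.8%) were at least 1.5-fold higher in 46C, 15 (23.4%) in BVSC and 13 (20.3%) in ROSAmT/mG fPSCs, against 7.51%, 3.19% and 4.13% of genes tested. Of the 55 called lower genes, 7 (12.7%) were at least 1.5-fold lower in 46C, 16 (29.1%) in BVSC and 20 (36.4%) in ROSAmT/mG fPSCs, against 3.29%, 4.00% and 6.87%. The opposite direction held for 4 (6.25%), 4 (6.25%) and 10 (15.6%) of the called higher genes, in that order of lines. For the called lower genes it held for 1 (1.82%), 2 (3.64%) and 3 (5.45%). Over genes tested, 3.29%, 4.00% and 6.87% were lower and 7.51%, 3.19% and 4.13% higher. These shares are a description of single libraries, with no test.

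Core pluripotency genes did not pass the test in either direction. Pou5f1, the central factor of pluripotency, stood at 555 and 420 FPKM against 493, 462 and 499 FPKM (log2 fold change 0.00, SE 0.18). Nanog stood at 75.3 and 91.5 FPKM against 75.4, 66.4 and 82.8 FPKM (0.15, SE 0.17), with overlap between the groups. Sox2 stood at 29.9 and 38.8 FPKM against 26.6, 25.0 and 25.7 FPKM (0.39, SE 0.16, adjusted p = 0.342). Of 16 general pluripotency genes tested with limma, 0 were called and 3 had an unadjusted p under 0.05, with a median log2 fold change of 0.10. For this and every later list, such counts stand beside 1426 of 10458 genes tested with an unadjusted limma p under 0.05. A miss of the threshold does not show equal levels.

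Of 24 formative genes tested, 0 rose and 1 fell, with a median of 0.15. Otx2, which drives the exit from the naive state, stood at 63.2 and 56.3 FPKM against 48.9, 48.7 and 40.9 FPKM (0.37, adjusted p = 0.355). Fgf5 stood at 112 and 116 FPKM against 107, 85.2 and 72.9 FPKM (0.38), Dnmt3b at 491 and 590 FPKM against 547, 435 and 413 FPKM (0.22) and Utf1 at 463 and 309 FPKM against 460, 498 and 508 FPKM (-0.37). Pou3f1 (Oct6), a POU factor of the postimplantation epiblast, was the gene that fell, with 16.6 and 17.6 FPKM against 34.0, 40.0 and 35.4 FPKM (-1.05, SE 0.14, adjusted p = 0.0239). Its call was lost without the E6.5-derived library, P10, P20 or P30 (adjusted p = 0.0504, 0.0804, 0.129 and 0.0731). Of the naive genes, only 5 of 20 passed the filter on low values, and 0 of these were called (1 at an unadjusted p under 0.05). Germline, 2-cell-like and Hox genes had 0 members that passed the filter.

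Most genes of the primitive streak lay higher in epiblast-derived fPSCs, and 1 of them passed the test. Of 17 streak and mesoderm genes tested, 1 rose and 0 fell, with a median of 0.48. The groups lay apart upwards, meaning that both epiblast-derived libraries were above all 3 mESC-induced ones, for 12 of the 17, and downwards for 0. Over all genes tested, the groups lay apart upwards for 12.6% and downwards for 18.6%. This list also differed between mESC lines. Relative to the second-deposit CMT library, its median log2 difference was 0.50 in 46C, -0.30 in BVSC and -0.92 in ROSAmT/mG fPSCs. Each line had 1 library, with no test. T (Brachyury), the factor of the nascent streak, stood at 20.3 and 21.2 FPKM against 16.5, 14.7 and 19.1 FPKM (0.30, adjusted p = 0.456).

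Sp5, a zinc finger factor that is itself switched on by Wnt signals, was the streak gene that rose. It stood at 13 and 11.2 FPKM against 3.11, 2.26 and 2.09 FPKM (1.91, SE 0.19, adjusted p = 0.00516). The call was lost with the second-deposit libraries added, where Sp5 stood at 3.18 FPKM in CMT, 12.8 FPKM in 46C, 2.01 FPKM in BVSC and 0.480 FPKM in ROSAmT/mG fPSCs. It was also lost when genes at low levels were left in. The sequence before its start is shown because Sp5 is a standard readout of Tcf and Lef factors, whose core site reads CTTTGA, or TCAAAG on the other strand. The 300 bases before the Sp5 start on the plus strand of chr2:70312680-70312979 (mm9) held 3 matches, in capitals.
Sp5 promoter: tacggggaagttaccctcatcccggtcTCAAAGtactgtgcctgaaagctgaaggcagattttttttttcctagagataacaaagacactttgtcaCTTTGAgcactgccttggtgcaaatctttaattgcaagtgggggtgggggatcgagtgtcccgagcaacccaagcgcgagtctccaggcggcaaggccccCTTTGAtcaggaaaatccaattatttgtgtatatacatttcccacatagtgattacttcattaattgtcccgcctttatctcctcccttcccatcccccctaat

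At least 1 match of CTTTGA on either strand was found in 13.3% of 10103 such windows of genes tested, in 15% of those of called higher genes and in 11.8% of those of called lower genes. A match describes these letters and no bound factor. Of 15 Wnt targets tested, 1 rose (Sp5) and 0 fell, with a median of 0.25. Of 34 Wnt ligands, receptors and inhibitors, 0 were called (10 at an unadjusted p under 0.05, all higher), and the median was 0.30. The groups lay apart upwards for 14 and downwards for 1, against 12.6% and 18.6% of all genes tested. Relative to the CMT library, the median of these 34 genes was 0.54 in 46C, -0.09 in BVSC and -0.15 in ROSAmT/mG fPSCs, with no test. Axin2, the most widely used Wnt target, stood at 14 and 15.2 FPKM against 12.2, 9.76 and 16.8 FPKM, with overlap.

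The list that stood farthest from the rest was definitive endoderm. All 11 members passed the filter, and 0 were called with limma while 8 had an unadjusted p under 0.05, all 8 higher. The median log2 fold change was 1.75 against -0.05 over all genes tested. The groups lay apart upwards for 8 of 11 and downwards for 0, against 12.6% and 18.6% of all genes tested. The P30 library bears on these values, since it was the lowest of the 5 libraries for 10 of the 11 genes, against 19.6% of all genes tested. Without P30 the median was 1.113, a setting chosen after the data were seen. The summed level of the list was 446 and 275 FPKM in the E5.5- and E6.5-derived libraries and 205, 161 and 78.7 FPKM at P10, P20 and P30.

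The endoderm and anterior streak genes below were chosen after their values were seen, and none of them passed the test. Cer1, a secreted inhibitor of Nodal, BMP and Wnt, stood at 124 and 56.4 FPKM against 21.1, 10.2 and 2.73 FPKM (3.12, SE 0.69, adjusted p = 0.0962). Mixl1, a homeobox factor of mesendoderm, stood at 43.1 and 44.5 FPKM against 15.7, 6.97 and 4.57 FPKM (2.31, SE 0.41, adjusted p = 0.0531). Sox17, a defining factor of endoderm, stood at 12.7 and 11.6 FPKM against 3.57, 3.49 and 0.265 FPKM (2.15, SE 0.53).

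Gata6, an endoderm factor, stood at 6.5 and 6.07 FPKM against 1.82, 1.59 and 0.396 FPKM (1.75, SE 0.31, adjusted p = 0.0531). Foxa2, a pioneer factor of endoderm and node, stood at 68.0 and 58.8 FPKM against 44.3, 20.0 and 5.24 FPKM (1.83, SE 0.70, adjusted p = 0.318). Dkk1, a Wnt inhibitor of the anterior embryo, stood at 8.10 and 6.58 FPKM against 2.04, 1.04 and 0.165 FPKM (2.102, SE 0.37, adjusted p = 0.0532). For all 3 genes the E5.5-derived library was the highest and P30 the lowest, and for Foxa2 the P10 library lay closer to the epiblast-derived libraries than to P30.

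Markers of another endoderm were checked beside these genes. Visceral endoderm, the extraembryonic layer around the epiblast, had 11 of 23 measured members at a testable level, with a median log2 fold change of 0.68 and 0 called (6 at an unadjusted p under 0.05). Its list shares factors with definitive endoderm. The defining secreted proteins Afp, Ttr, Apoa4, Apob, Cubn and Trf were at or below 0.277 FPKM in all 5 libraries, and the summed level of the visceral list was 142 and 149 FPKM against 107, 117 and 105 FPKM.

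Levels of endoderm genes also differed between fPSCs of different mESC lines. Relative to the cryopreserved fPSCs from CMT at P11 in the second deposit, the median difference of the list on the log2 scale was 1.88 in 46C, -0.63 in BVSC and -1.60 in ROSAmT/mG fPSCs, with 1 library per line and no test. All 11 genes were above CMT in the 46C library and 0 in each of the other 2. Cer1 stood at 203 FPKM and Sox17 at 50.6 FPKM in 46C fPSCs, above both epiblast-derived libraries. Relative to the mESC-induced P10 library, the median was 1.13 in the E5.5-derived, 1.12 in the E6.5-derived, -0.12 in the P20 and -1.10 in the P30 library. The median between the 2 origins was thus below that of 46C over CMT, and these differences come from separate deposits.

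**Figure D4:**
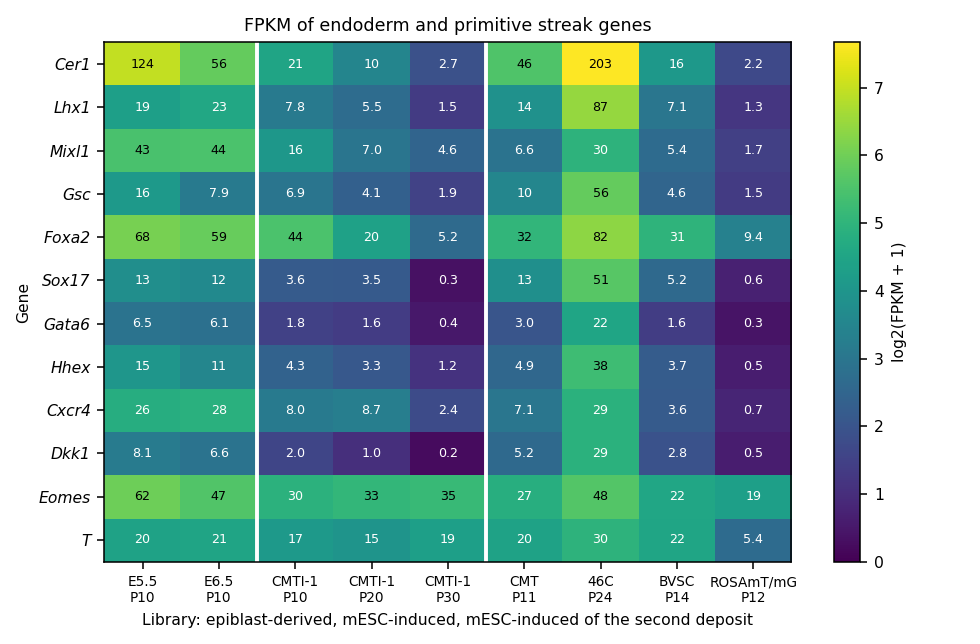
FPKM of 12 endoderm and primitive streak genes, written in each cell and coloured by log2(FPKM + 1), in the 2 epiblast-derived, 3 mESC-induced and 4 second-deposit mESC-induced fPSC libraries (columns). The epiblast-derived columns are brighter than the CMTI-1 columns and P30 is the darkest of those, while 46C P24 reaches higher levels for Cer1 (203 FPKM) and ROSAmT/mG P12 is near P30.

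Signals that act on the streak were also compared. Of 13 BMP genes tested, 1 rose and 0 fell, with a median of 0.71 and the groups apart upwards for 8 (against 12.6% of all genes tested). Relative to the CMT library, the median of the BMP list was 0.36 in 46C, -0.19 in BVSC and -0.24 in ROSAmT/mG fPSCs, with no test. Id3, an inhibitor of basic helix-loop-helix factors and a direct BMP target, stood at 24.3 and 25.1 FPKM against 8.79, 8.19 and 13.1 FPKM (1.25, SE 0.21, adjusted p = 0.0454). In the second deposit Id3 stood at 26.3 to 41.4 FPKM in all 4 mESC-induced libraries, above both epiblast-derived ones. The call of Id3 was lost without the E5.5-derived library, the E6.5-derived library, P10 or P20 (adjusted p from 0.0827 to 0.161). Of 26 Nodal and TGF-beta genes, 0 were called (6 at an unadjusted p under 0.05), with a median of 0.24, and Nodal itself stood at 35.8 and 22.5 FPKM against 26.8, 40.5 and 54.6 FPKM. Of 23 FGF and ERK genes, 0 were called (4 at an unadjusted p under 0.05), with a median of -0.07.

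Further lists held single calls. Kit, the receptor tyrosine kinase of germ cells and other migrating progenitors, was the 1 rise among 7 primordial germ cell genes tested, with 7.06 and 8.16 FPKM against 2.74, 2.49 and 2.56 FPKM (1.26, SE 0.16, adjusted p = 0.0165). Amotl2, a scaffold that holds Yap at junctions, was the 1 fall among 23 Hippo and Yap genes, with 9.61 and 12.6 FPKM against 23.7, 27.5 and 23.3 FPKM (-1.10, SE 0.17). Itga3, a laminin-binding integrin chain, was the 1 fall among 17 laminins, integrins and basement membrane genes, with 13.2 and 11.5 FPKM against 26.2, 30.9 and 24 FPKM (-1.07, SE 0.16). Leaving out P10, P20 or P30 ended all 3 calls, with adjusted p from 0.0561 to 0.159. Leaving out the E6.5-derived library ended those of Kit (0.0518) and Itga3 (0.0819), and leaving out the E5.5-derived library that of Amotl2 (0.0588).

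Imprinted genes are expressed from 1 parental copy and can drift in culture. Of 14 maternally expressed genes tested, 1 rose, and of 21 paternally expressed genes, 1 fell (Impact). H19, a maternally expressed long RNA, rose from 0.347, 0.206 and 0.202 FPKM to 1.94 and 2.14 FPKM (1.28, SE 0.18, adjusted p = 0.0252), low levels throughout. Leaving out any 1 of the 5 libraries ended the call of H19 (adjusted p from 0.0510 to 0.125), and that of Impact was lost without the E5.5-derived library, P10 or P20 (0.0588, 0.0900 and 0.110). The paternal list had a median of -0.21, with the groups apart downwards for 10 of 21, against 18.6% of all genes tested.

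Antigen presentation and interferon genes had a median of -0.47, with 1 rise and 2 falls among 21 tested. The groups lay apart downwards for 11 of these, against 18.6% of all genes tested. H2-K1, a classical class I molecule that presents peptides to T cells, stood at 19.1 and 11.4 FPKM against 42.7, 52.1 and 36.0 FPKM (-1.49, SE 0.25, adjusted p = 0.0440). H2-T22, a nonclassical class I gene, stood at 1.30 and 0.849 FPKM against 4.98, 6.07 and 3.46 FPKM (-1.48), while H2-T10 stood at 2.75 and 1.41 FPKM against 0.00983, 0.162 and 0.0346 FPKM (1.49). H2-Bl, a further class I gene chosen after its values were seen, stood at 0.133 and 0.0585 FPKM against 7.49, 9.08 and 10.2 FPKM (-3.17). Class I genes share sequence with each other (24.5% of the words of H2-K1 and 20.9% of those of H2-Bl), so their values are uncertain. The calls of H2-K1, H2-T22 and H2-T10 were each lost without P10 (adjusted p = 0.131, 0.128 and 0.125) and without P20 (0.153, 0.147 and 0.125). H2-K1 also lost its call without the E6.5-derived library (0.0860) or P30 (0.0768), H2-T22 without either epiblast-derived library (0.0534 and 0.105) and H2-T10 without the E5.5-derived library (0.0778) or P30 (0.101).

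Sex chromosome genes were looked at because a line carries the sex of its embryo. All 4 Y-linked genes tested had a non-zero value in each of the 5 libraries, but values at P30 were low. Uty stood at 1.98 and 2.65 FPKM against 2.02, 1.85 and 0.195 FPKM, and Kdm5d was near the floor at P30. Xist and Tsix were at or below 0.0388 FPKM in all 5 libraries. Kdm5d, a Y-linked histone demethylase, rose from 0.171, 0.134 and 0.00492 FPKM to 1.38 and 2.31 FPKM (1.35, SE 0.22, adjusted p = 0.0402), a call lost without the E6.5-derived library, P10, P20 or P30 (0.106, 0.114, 0.148 and 0.101). Eif2s3y stood at 8.62 and 8.70 FPKM against 8.13, 8.24 and 1.85 FPKM, and Ddx3y at 5.25 and 9.85 FPKM against 6.84, 4.44 and 1.55 FPKM, both lowest at P30. Utp14a, an X-linked gene of ribosome assembly, was the 1 fall among 7 genes listed as escaping X inactivation, with 14.7 and 13.8 FPKM against 39.9, 41.6 and 38.5 FPKM (-1.43, SE 0.14, adjusted p = 0.00482).

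Lists of general metabolism and growth held few calls or none. With limma, 0 of 34 cholesterol and fatty acid genes, 0 of 53 oxidative phosphorylation genes, 0 of 32 glycolysis and hypoxia genes, 0 of 30 cell cycle genes and 0 of 21 serine, threonine and one-carbon genes were called. At an unadjusted p under 0.05 there were 3, 2, 2, 5 and 6 genes, in that order. Their medians lay between -0.27 and 0.03. Of 23 p53 targets and apoptosis genes, 1 fell (Sesn2), with a median of -0.30 and the groups apart downwards for 10 (against 18.6% of all genes tested). With limma, 8 had an unadjusted p under 0.05, 1 higher and 7 lower. Pmaip1, named after its values were seen, went up without a call. It stood at 4.10 and 22.4 FPKM against 1.35, 0.166 and 0 FPKM (2.97, limma adjusted p = 0.0878). Of 74 ribosomal protein genes on a list that leaves out Rps3a1 and Rpl35a, 1 rose (Rps13) and 3 fell (Rpl26, Rps18 and Rps2), with a median of 0.09. The plot of list medians sets all lists side by side.

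**Figure D5:**
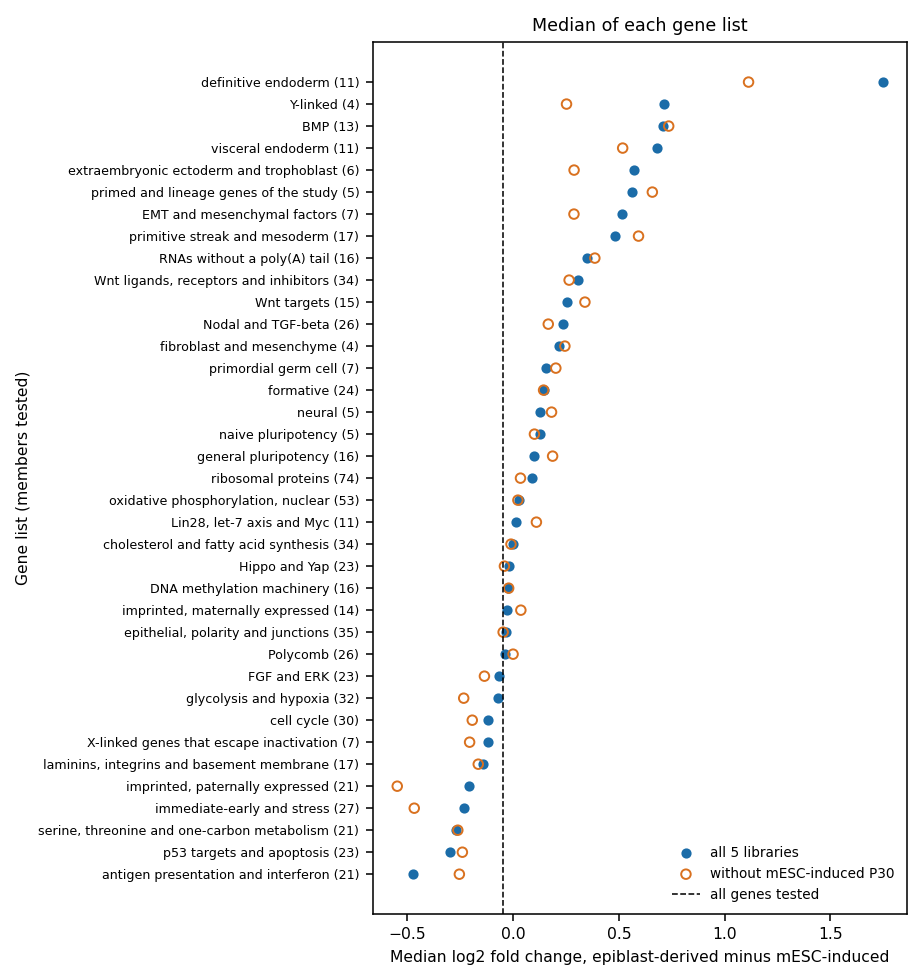
Median log2 fold change (epiblast-derived minus mESC-induced) of each gene list with at least 4 members tested (number in brackets), with all 5 libraries (blue) and without P30 (open orange circles). The dashed line marks the median of all genes tested, -0.05; definitive endoderm lies farthest out at 1.75, or 1.113 without P30.

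The labels give 2 fPSC samples at P10 for each chromatin mark and for DNA methylation. 1 table for each assay was used here, and whether it holds 1 sample or both was not stated. These cells were not split by epiblast or mESC origin, so the values describe the genes and not the comparison. H3K27me3, the mark laid by Polycomb, within 1000 bp of the start was in the top 10% of genes tested (an RPKM of 0.966 or more) for 23 of 60 called higher genes (38.3%) and 4 of 51 called lower genes (7.84%). Of all 64 called higher genes, 19 had a mean below 1 FPKM in the mESC-induced group. Such genes passed the filter on low values largely through the epiblast-derived libraries. The shares of called higher and lower genes are therefore not independent of how the genes were selected. Of the definitive endoderm list 7 of 11 members were in the top 10%, and of the streak list 9 of 17. Sp5 had an H3K27me3 RPKM of 2.48, an H3K4me3 RPKM of 3.17 and a methylated fraction of 0.00778 within 500 bp of its start. Pcdh8 and Lmo1, a LIM-only cofactor among the called higher genes, had H3K27me3 RPKM of 2.84 and 2.77.

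Methylated starts were frequent in both directions. A methylated fraction of 0.5 or more was found for 19 of 59 called higher genes (32.2%), 11 of 51 called lower genes (21.6%) and 8.38% of genes tested. The limit set by the selection of called genes holds for these shares too. The methylated starts include those of copies: the start of Rps2-ps13 had a fraction of 0.962 and an H3K4me3 RPKM of 0.062, that of Vcp-rs 0.988 and 0.248, and that of Rps3a2 0.930 and 0.124. H3K4me3 marks active starts, and its median RPKM was 5.10 over genes tested. Fragments of near-identical copies are uncertain in these data too.

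The E5.5- and E6.5-derived libraries differed from each other more than the mESC-induced passages did from one another. With 1 library each there is no test, and the passages were all of CMTI-1 origin while the 2 epiblast-derived libraries were separate derivations. Of 10582 genes at 1 FPKM or more in either, 266 were at least 2-fold higher in the E5.5-derived and 242 in the E6.5-derived library (4.80%), against 1.13% between P10 and P20, 2.32% between P10 and P30 and 1.88% between P20 and P30. Over the 10458 genes tested, 456 differed at least 2-fold between the 2 epiblast-derived libraries. Relative to CMT fPSCs, 247 of these 10458 were at least 2-fold higher and 103 lower in 46C. The counts were 86 and 112 in BVSC and 106 and 205 in ROSAmT/mG fPSCs. Pearson's r over the genes tested, on log2(FPKM + 1), was 0.964 between the 2 epiblast-derived libraries, 0.977 to 0.986 within the mESC-induced libraries and 0.952 to 0.962 between the groups. These coefficients are descriptions over genes, which are not independent replicates. With the mean of the EpiLC libraries r was 0.886 to 0.897 for the epiblast-derived and 0.924 to 0.931 for the mESC-induced libraries, and EpiLCs were themselves made from mESCs.

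Named by size, the genes higher in the E5.5-derived library began with copies and ended with Dusp26 and Trh. Rps24-ps3 stood at 107 FPKM in the E5.5-derived and 0.933 FPKM in the E6.5-derived library, and Got2-ps1 at 22.1 and 0.517 FPKM. Dusp26, a phosphatase of MAP kinases, stood at 15.2 and 0.141 FPKM. Trh, the precursor of thyrotropin-releasing hormone, stood at 547 and 50.7 FPKM, but it also ran from 1.36 FPKM at P30 to 252 FPKM at P10 among the mESC-induced libraries.

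The genes higher in the E6.5-derived library were Rpl30-ps9 (45.5 against 0.406 FPKM), Hmgb1-ps7 (38.2 against 0.463 FPKM), Rpl30-ps10 (25.1 against 0.900 FPKM), Prex2 and Meis1. Prex2, an exchange factor for Rac, stood at 13.7 FPKM in the E6.5-derived and 0.301 FPKM in the E5.5-derived library. Meis1, a TALE homeobox factor of developing mesoderm and blood, stood at 11.1 and 0.244 FPKM, and it was at or below 0.0470 FPKM at P10, P20 and P30. Glycolysis and hypoxia genes had a median log2 difference of 0.76 towards the E5.5-derived library, with 9 of 32 at least 2-fold higher there and 1 lower.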

How the data were processed

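Total RNA of 19 bulk samples was sequenced. The authors deposited FPKM per gene, made with cutadapt 1.11, TopHat2 2.1.1 and Cufflinks 2.1.1 on mouse mm9 (versions also in the submitters' processing notes). H3K4me3 and H3K27me3 signal, aligned with Bowtie2 2.2.2 after Trim Galore, was deposited as binned RPKM, and DNA methylation (BS-Seeker2) as a methylated fraction in windows.

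Of 23608 entries, 4 with repeated names were left out. The count-based test of the study could not be used on FPKM, so limma 3.58.1 (R 4.3.3, empirical Bayes with trend) was run on log2(FPKM + 1), where a gene reached 1 FPKM in 2 or more of the 5 libraries, with Benjamini-Hochberg adjustment over 10458 genes. No count or depth is known for any library. Fold changes on this scale understate the change of low genes. On simulated data of 10458 genes with 200 changed, 80% were recovered at a log2 change of 1 and 100% at 2. These shares do not carry over to every gene of these data. Cer1 (3.12) and Mixl1 (2.31), which spread widely between libraries of a group, were not called.

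Shared sequence was counted in GENCODE transcripts on mm9 (NCBIM37). Replicates were numbered in accession order. The genes named are the 2 markers, the 12 largest called rises and falls without overlap whose mean reached 10 FPKM in either group (1 RNA without a poly(A) tail was left out), called members of the lists (at most 4 a list), fixed pluripotency, T and sex chromosome genes, and the 5 largest ratios each way between the epiblast-derived libraries. Other genes are marked in the text. 1 of the 12 falls is not reported here. The comparison, lists and alternatives were chosen with earlier results of these data known. Nothing says that the samples came from separate cultures of a group.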

Additional observations from a re-analysis of the deposited data

How the results depend on the processing

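The 119 calls (64 higher, 55 lower) were recomputed under other settings, of which the summing of copies and the removal of shared-sequence genes were chosen after the data were seen. With no filter on low values 21 genes were called (11 higher, 10 lower) of 16970 tested. In 1 fit with mESCs, EpiLCs and EpiSCs, which share the estimate of the spread, there were 239 (135 higher, 104 lower). With P10 as the only control there were 20 (10 and 10), with copies summed 76 (38 higher) and with shared-sequence genes left out 70 (36 and 34). A pseudocount of 0.1 gave 42 higher genes. Leaving out 1 library gave 37 to 208 calls, 21 to 89 higher and 16 to 119 lower. The lowest was without P20 and the highest without the E5.5-derived library. A group left with 1 library was taken to vary like the other. The added second-deposit libraries gave 107 calls, 68 of them among the 119. Of the 38 named calls, 12 were kept without the filter and 15 with P10 alone, and 0 reversed their sign under the 15 settings in which they were tested as single genes. Summing copies replaced Rps2 (-3.26) by its family, whose log2 fold change was 0.80 (adjusted p = 0.296). Differences of at least 2-fold between the E5.5- and E6.5-derived libraries numbered 527 and 472 with a pseudocount of 0.1. Upper-quartile scaling moved the median of all genes from -0.05 to -0.01.

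No paired analysis was possible because replicate numbers were given in accession order and the labels pair no epiblast-derived with a mESC-induced sample. Without counts, depth sets no limit that can be stated, and 2 against 3 libraries limits the precision.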

Other observations

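The level of a copy with no call differed widely between fPSCs of different mESC lines. Tpm3-rs7, a copy of the tropomyosin gene Tpm3, stood at 119 FPKM in the E5.5-derived and 3.61 FPKM in the E6.5-derived library. It stood at 233, 237 and 215 FPKM at P10, P20 and P30 and at 138 FPKM in CMT fPSCs. In 46C, BVSC and ROSAmT/mG fPSCs it stood at 4.07, 3.69 and 3.67 FPKM, and in the 2 EpiSC libraries at 7.71 and 8.41 FPKM. Of its words, 80.1% occur at another locus, so its values are uncertain. Tpm3-rs7 is 1 of the 5 genes with the largest ratio of the E5.5- to the E6.5-derived library.

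Atf4 and 3 of its targets are named after their values were seen, and none passed the test. Atf4, the transcription factor of the integrated stress response, stood at 103 and 83.6 FPKM in the E5.5- and E6.5-derived libraries and at 244, 262 and 141 FPKM at P10, P20 and P30 (log2 fold change -1.15, SE 0.28, limma adjusted p = 0.121). Its targets Trib3 and Chac1 stood at 13 and 14.3 FPKM against 55.5, 52.4 and 26.6 FPKM and at 15.0 and 15.6 FPKM against 86.6, 102 and 23.9 FPKM. For all 3 genes the P30 library was the nearest of the mESC-induced libraries to the epiblast-derived ones. Asns, another target, overlapped between the groups at 170 and 78.0 FPKM against 137, 177 and 171 FPKM.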
